A study of Mus musculus with 16 samples.

Results

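The Wnt ligands, receptors and mediators described here are 39 mouse genes, chosen by name from the pathway by a rule that uses no measured value, although with earlier results of these data known, out of 22367 protein-coding genes of the annotation. They comprise 19 Wnt ligands, 10 Frizzled receptors, the 4 LEF/TCF transcription factors Lef1, Tcf7, Tcf7l1 and Tcf7l2, the co-receptors Lrp5 and Lrp6, the secreted inhibitors Dkk1, Sfrp1 and Sfrp2, and Axin2, and all 39 names were found in the annotation. The study profiled 3 histone modifications by chromatin immunoprecipitation and sequencing (ChIP-seq) in female (40, XX) and male (40, XY) mouse embryonic stem (ES) cells, to ask whether the transcriptional differences between the sexes have a counterpart in chromatin. All lines are hybrids of C57BL/6 and CAST/EiJ mice, and all were grown in serum and LIF on inactivated mouse embryonic fibroblasts, made from pooled embryos of both sexes and depleted before harvest. The labels give 16 libraries, with 2 lines per sex for each of H3K27Ac, H3K27Me3 and H3K4Me1 and with 1 IgG and 1 input library per sex. The labels put the lines at passage 7-10, and the number after the letter F in their strain name changes from library to library, whereas the methods describe F1 hybrids throughout. The material analysed here is 6 lists of enriched regions on mm9, 1 per sex and mark, called the female and the male list below.

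Wnt ligands are secreted glycoproteins that bind Frizzled receptors and, in the canonical branch, the co-receptors Lrp5 and Lrp6. The signal stabilises β-catenin, which enters the nucleus and joins LEF/TCF proteins on DNA. Dkk1 blocks the co-receptors, the secreted Frizzled-related proteins bind the ligands, and Axin2 is a target of the pathway that dampens it. In ES cells the pathway favours self-renewal, with Tcf7l1 known there mainly as a repressor, and in the embryo it drives gastrulation and the formation of mesoderm, including the heart. H3K27Ac is found at active promoters and enhancers, H3K4Me1 chiefly at enhancers and beside gene starts, and H3K27Me3 at genes repressed by Polycomb. Genes that hold H3K27Me3 beside activating methylation of histone H3 in ES cells are known as bivalent, a state usually defined with H3K4Me3, which is not among the marks analysed here.

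Each list holds positions alone, without reads, heights or scores. The female lists hold 28784 regions of H3K27Ac, 18534 of H3K27Me3 and 39404 of H3K4Me1, whereas the male lists hold 26100, 15138 and 34800. Each female list was thus longer than its male counterpart, and a longer list has more chances to hold a region that the other lacks. There is 1 list per sex and mark, so no value below has an SD or a test, and the depth behind a region is unknown. A mark in part of the cells and a weaker mark in all of them cannot be told apart. The ES cell label was checked against markers: 12 of 12 pluripotency genes carried H3K27Ac in both lists, with H3K27Me3 also at 4 of them (female) or 5 (male), and 10 of 10 housekeeping genes carried H3K27Ac and none carried H3K27Me3 in either list. Of 14 fibroblast markers, which the feeder cells express, 2 carried H3K27Ac in the female list and 7 in the male list, and 7 and 10 carried H3K4Me1. Col1a2 and Col3a1 carried no mark in any of the 6 lists. Col1a1, Twist1, Twist2, S100a4 and Tagln carried H3K27Ac in the male list only, 5 of the 14 markers, against 2.55% of all genes. In the female list only it lay at 0 of the markers, against 3.1% of all genes.

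H3K27Me3 marked almost the whole gene set in both sexes, while H3K27Ac divided it by role, being nearly missing from the ligands and present at most receptors and all LEF/TCF genes. A gene was counted as carrying a mark where a region overlapped its body or lay within 5 kb of any of its annotated transcription start sites (TSSs). H3K27Me3 lay at 37 of the 39 genes in the female list, where 40.5% of all protein-coding genes had it, and at 37 in the male list, where 35.4% did. The genes were the same in both lists (31.6% of all genes had the mark in both), with none in the female list only (8.9% of all genes) or the male list only (3.8%), and Fzd5 and Lrp6 lacked the mark in both (55.7%). Restricting the search to 2 kb around a TSS, which leaves out the gene body, kept 37 genes in the female list against 36 in the male, against 32.9% and 28.8% of all genes. The members were longer than other genes, with a median of 22.2 kb against 15.4 kb.

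H3K27Ac lay at 20 of the 39 genes in the female list and 19 in the male list, or 51.3% and 48.7%, below the shares of all genes, which were 58.8% and 58.3%. It was in both lists at 19 members (55.7% of all genes), in the female list only at Fzd9 (3.1%), in the male list only at 0 members (2.55%), and in neither at 19 (38.6%). H3K4Me1 lay at 36 members in each list, a mark that 67.0% of all genes had in the female list and 65.4% in the male. For H3K4Me1, 35 members were in both lists (62.5% of all genes), Wnt8b in the female list only (4.54%), Fzd4 in the male list only (2.96%), and Wnt2 and Fzd6 in neither (30.0%). A difference at 1 member of 39 is a share below that of all genes for each of these calls.

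**Figure D1:**
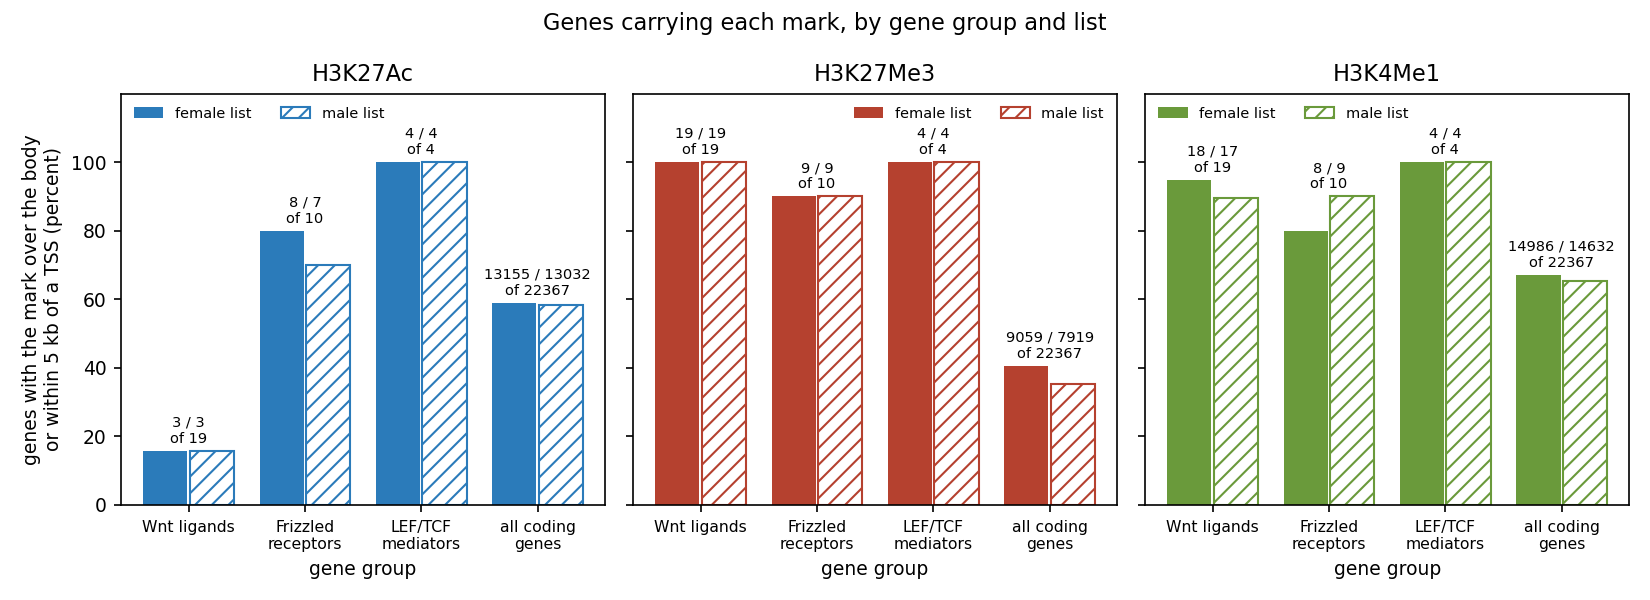
Percent of genes in each group that carry H3K27Ac, H3K27Me3 or H3K4Me1 over the body or within 5 kb of a TSS, with filled bars for the female list and hatched bars for the male list and the counts above them. Ligands stand at 3 of 19 for H3K27Ac and 19 of 19 for H3K27Me3 in both lists, Frizzled receptors at 8 and 7 of 10 for H3K27Ac, and LEF/TCF mediators at 4 of 4 for every mark.

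The combination of marks differed between ligands and receptors. In the female list 17 members carried H3K27Me3 with H3K4Me1 and without H3K27Ac, a state held by 10.5% of all genes, and 15 of the 17 were ligands. Another 17 carried all 3 marks, as 24.1% of all genes did, among them 6 Frizzled receptors and all 4 mediators. Only Fzd5 and Lrp6 showed H3K27Ac with H3K4Me1 and without H3K27Me3, which is the most frequent marked state among all genes at 30.0%. No member was free of all marks, against 23.4% of all genes. In the male list the state with H3K27Me3 and H3K4Me1 alone held 18 members (9.27% of all genes) and the state with all 3 marks 16 (20.2%).

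The extent of each mark was measured as the share of bases covered in the 10 kb centred on the gene start, the annotated 5′ end. The members' median for H3K27Me3 was 92.0% in the female list against 85.3% in the male, while the median of all genes was 0 in both. For H3K27Ac the members' median was 0 in both lists, below the 9.99% of all genes, and for H3K4Me1 it was 79.7% and 71.7%, above the 38.0% of all genes. H3K27Me3 covered more of this window in the female list at 19 members and more in the male list at 6, with 14 equal. Over all genes the same comparison gave 5090, 2786 and 14491, so a wider female H3K27Me3 was the common direction of the lists.

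**Figure D2:**
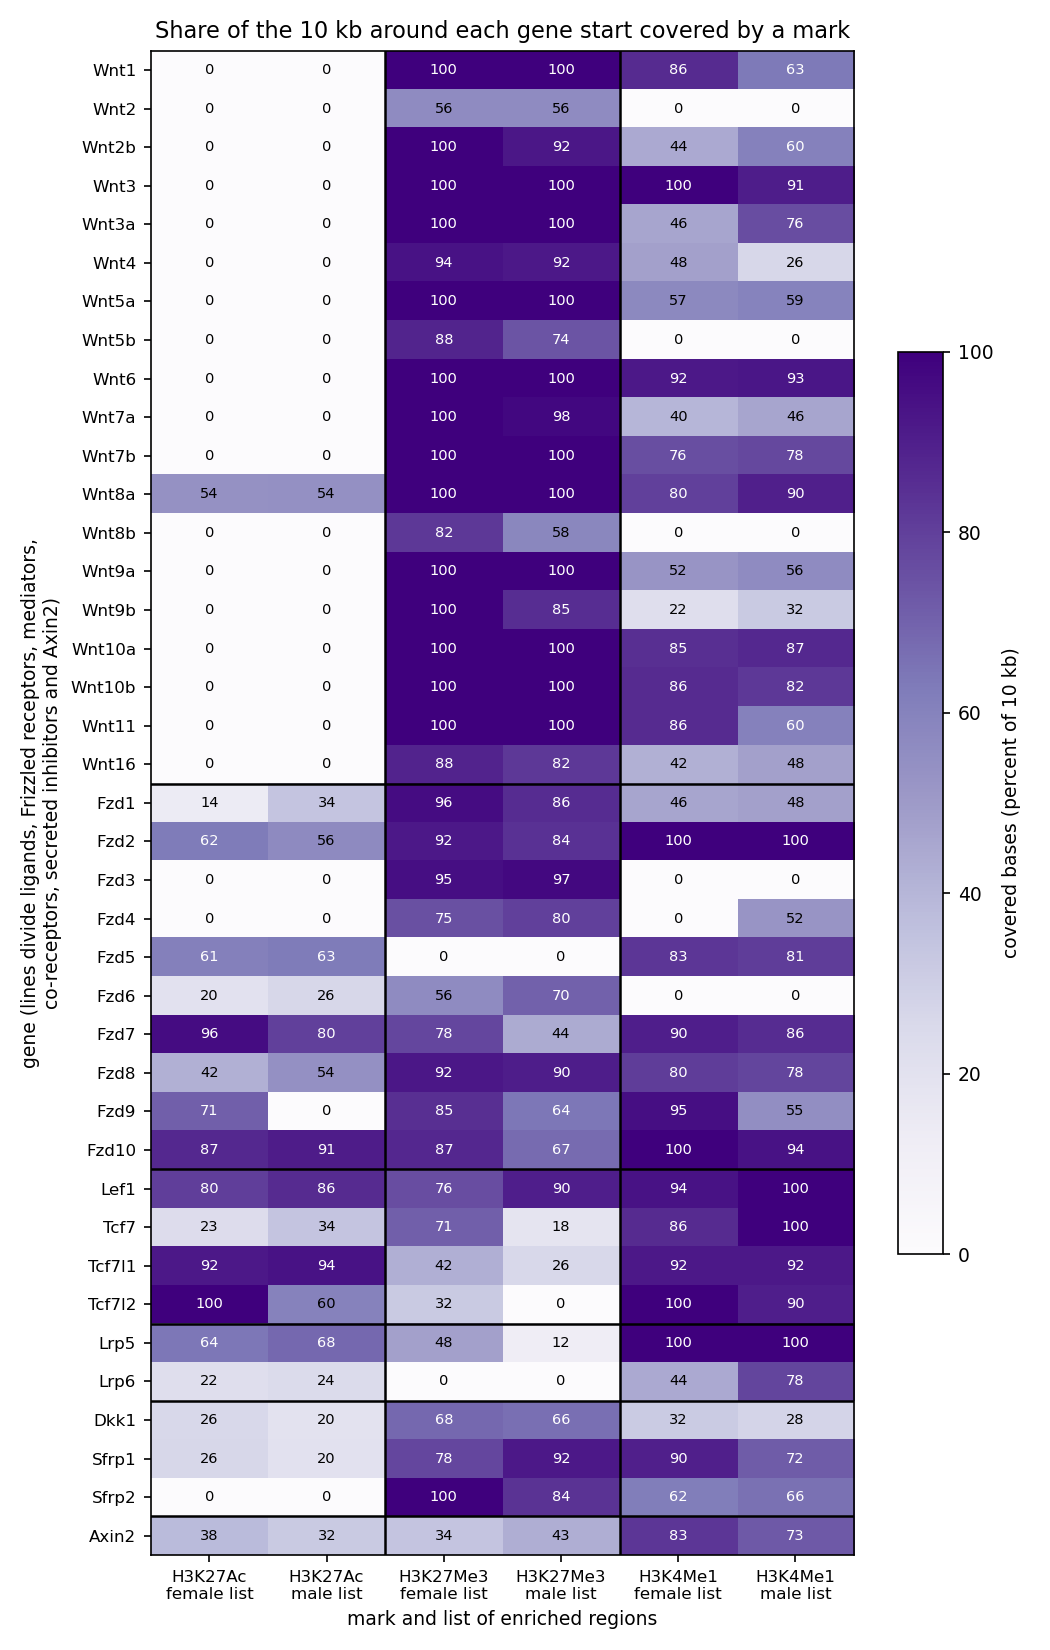
Percent of the 10 kb around the gene start covered by regions of each mark, 1 row per gene and 1 column per mark and list, with darker cells for more coverage. The H3K27Ac columns are at 0 for every ligand but Wnt8a, and the H3K27Me3 columns are at 0 in both lists for Fzd5 and Lrp6.

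All 19 ligand genes carried H3K27Me3 in both lists, and the mark usually covered the whole neighbourhood of the gene start. The ligand median was 100% of the 10 kb in both lists. Wnt1, Wnt3, Wnt3a, Wnt5a, Wnt6, Wnt7b, Wnt8a, Wnt9a, Wnt10a, Wnt10b and Wnt11 were covered at 100% in both. Wnt2b, Wnt7a and Wnt9b were covered at 100% in the female list and at 92.3, 97.6 and 85.3% in the male list. The lowest value belonged to Wnt2, at 56.0% in each list, where a single region of 5.6 kb had the same ends in both. Wnt4 had 94.0% and 92.0%, Wnt16 had 88.3% and 82.3%, Wnt5b 88.0% and 74.0%, and Wnt8b 82.4% and 58.0%.

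H3K27Ac at ligands was limited to Wnt5b, Wnt7b and Wnt8a, the same 3 genes in both lists. Wnt8a, a ligand of the early primitive streak, was the only one with H3K27Ac over its gene start, covering 53.7% of the 10 kb in the female list against 54.0% in the male, all of it also inside H3K27Me3 regions. Wnt7b carried it from 10.45 to 17.45 kb inside the gene in the female list, with a further female-only region of 2.8 kb (chr15:85389801-85392599), and from 5.45 to 18.25 kb in the male list. At Wnt5b, a ligand mostly of the β-catenin-independent branch, the annotation gives 3 TSSs, and the marks differed between them. The outer start held H3K27Me3 alone in both lists. The start 94.93 kb further in held H3K27Ac and H3K4Me1 in both lists and lay in a gap of H3K27Me3, whose regions stood 0.4 kb away on either side in the female list and 0.2 kb away on the upstream side in the male list. The start at 77.11 kb held no mark, with a female H3K27Me3 region 0.37 kb from it and the nearest male one 8.03 kb away. The larger H3K27Ac region inside Wnt5b, of 5.4 kb in the female list and 7.8 kb in the male, held the start of Fbxl14. It cannot be assigned to one of these genes.

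H3K4Me1 lay at 18 ligands in the female list against 17 in the male, covering a median of 52.0% and 60.2% of the 10 kb. It ran from 100% at Wnt3 in the female list, with 90.6% in the male list, to 0 in both at Wnt2, Wnt5b and Wnt8b. Wnt2, the ligand with the narrowest H3K27Me3, had its nearest H3K4Me1 region 333 kb from the gene start in the female list against 192 kb in the male. At Wnt8b a female-only H3K4Me1 region of 10.2 kb (chr19:44583801-44593999) ran across the 3′ end of the gene into Sec31b, which encodes a coat protein of secretory vesicles. The nearest male H3K4Me1 region lay 24.8 kb from it, so this call rests on a region shared with the neighbouring gene.

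Neighbouring ligand genes shared single H3K27Me3 domains. Wnt1 and Wnt10b, 11.7 kb apart, lay in 1 region of 47.6 kb in the female list (chr15:98593601-98641199) and of 47.0 kb in the male list. Wnt6 and Wnt10a, 6.2 kb apart, shared regions of 52.6 kb (chr1:74809201-74861799) and 56.0 kb. Wnt3a and Wnt9a, 16.2 kb apart, shared 1 region of 55.4 kb in the female list (chr11:59073801-59129199), where the male list had regions of 12 and 16.0 kb at Wnt3a and of 16.6 kb at Wnt9a. The last 2 of these were 0.4 kb apart, which is 2 steps of the 200 bp grid, so a gap of that size decides whether these genes share a domain in the male list. Wnt3 and Wnt9b, 24.3 kb apart, lay in separate regions in both lists. Members that share a region are not independent of each other. These domains were wide for the lists, in which the median H3K27Me3 region was 4.2 kb in the female list against 4.4 kb in the male.

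The Frizzled receptors, the membrane proteins that bind Wnt, mostly carried both H3K27 modifications. H3K27Me3 lay at 9 of 10 in both lists, with Fzd5 the exception, and covered a median of 86.1% and 75.0% of the 10 kb. It was highest in the female list at Fzd1, with 95.8% against 85.8% in the male list, followed by Fzd3 with 95.0% and 97.0%. Fzd8 had 92.5% and 90.5%, Fzd2 92.0% and 84.0%, and Fzd10 87.2% and 67.2%. Fzd7 had 78.1% and 44.1%, Fzd4 75.2% and 80%, and Fzd6 56.0% and 70.0%. H3K27Ac lay over the gene start of 8 receptors in the female list against 7 in the male. It covered most at Fzd7 in the female list, with 95.9% of the 10 kb against 79.9% in the male, and most at Fzd10 in the male list, with 90.8% against 86.8% in the female. It was at 0 at Fzd3 and Fzd4 in both.

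Fzd5 was the receptor with the marks of an active gene alone. One H3K27Ac region of 10.2 kb in the female list against 10.4 kb in the male covered 60.8% and 62.8% of its 10 kb, H3K4Me1 covered 82.7% and 80.7%, and the nearest H3K27Me3 region was 16.9 kb from the gene start in the female list and farther in the male one. Fzd6 and Fzd3 had no H3K4Me1 within the 10 kb in either list, although Fzd3 carried it 15.1 to 19.3 kb inside the gene in the female list against 12.9 to 18.3 kb in the male. Fzd2 was covered by H3K4Me1 at 100% in both lists and Fzd10 at 100% and 94.0%.

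Fzd9 (chr5:135724808-135727100, minus strand) was the only member whose H3K27Ac call differed between the lists. The female list held 2 H3K27Ac regions there while the nearest male one lay 60.5 kb from the gene start. The larger female region, of 5.8 kb (chr5:135725201-135730999), held the Fzd9 start. The smaller one, of 2.0 kb (chr5:135721401-135723399), lay past the 3′ end of the gene over Baz1b, a gene for a chromatin remodelling protein. In the female list H3K27Ac covered 71.0% of the 10 kb at Fzd9, H3K27Me3 85.0% and H3K4Me1 95.0%. The male list had 0, 64.0% and 55.0%, so all 3 marks were narrower there and 1 was not found.

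Fzd4 (chr7:96552876-96558620, plus strand), a receptor for Wnt and Norrin, was the only member with an H3K4Me1 region in the male list and none in the female list. That region of 5.2 kb (chr7:96549401-96554599) held the starts of Fzd4 and of the divergent gene Tmem135, so it cannot be assigned to one of them. The nearest female H3K4Me1 region lay 16.4 kb from it. H3K27Me3 covered the same stretch in both lists, from -7.28 to 2.52 kb in the female list and from -4.68 to 3.32 kb in the male one.

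All 4 LEF/TCF genes, whose proteins carry the β-catenin signal to DNA, held H3K27Ac and H3K4Me1 in both lists. Among all genes 55.7% held H3K27Ac in both lists and 62.5% held H3K4Me1. The LEF/TCF genes are long, with a median of 138 kb against 15.4 kb, and a region anywhere in the body counted. Their female and male patterns parted most in H3K27Me3, where a median of 12.7% of covered bases lay in both lists. That is a median of 4 genes, against 66.1% over all genes with the mark in both lists. At Tcf7l1 and Tcf7l2, H3K27Me3 covered 3.58% and 1.63% of the bases searched in the female list and 4.61% and 2.54% in the male. The median of the LEF/TCF genes was 64.6% for H3K27Ac and 77.5% for H3K4Me1, against 71.9% and 73.0% over all such genes. H3K27Ac covered 80.1% of the 10 kb at Lef1 in the female list against 86.1% in the male, 23.2% and 34% at Tcf7, 92.0% and 94.0% at Tcf7l1, and 100% and 60% at Tcf7l2. H3K4Me1 covered 86.0% or more at each of them, from Tcf7 at 86.0% to Tcf7l2 at 100% in the female list. H3K27Me3 covered 76.1% and 90.1% at Lef1, 70.8% and 18% at Tcf7, 42.5% and 25.5% at Tcf7l1, and 32.0% and 0 at Tcf7l2. In this window Lef1 was covered more in the male list and the other 3 in the female list. Over the gene body and 5 kb around its TSSs, the direction held at Tcf7 alone, with 7.08 kb of H3K27Me3 in the female list against 1.8 kb in the male. It turned at Lef1, with 11.2 kb against 10.6 kb, at Tcf7l1, with 6.05 kb against 7.8 kb, and at Tcf7l2, with 3.2 kb against 5.0 kb.

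The H3K27Me3 regions of Tcf7l1 and Tcf7l2 shared no base between the lists, although both genes were counted as carrying the mark in both. Among all genes with H3K27Me3 in both lists 2.96% had no shared base, and among members with H3K27Ac or H3K4Me1 in both lists there were 0 such genes, against 0.538% and 1.45% of all genes. At Tcf7l1 (chr6:72576372-72739248, minus strand) the female regions ran from -7.35 to -0.75 kb and from 31.45 to 33.25 kb relative to the gene start. The male regions ran from 2.45 to 5.65 kb and from 6.85 to 11.45 kb, downstream of the start, whereas the larger female region lay upstream. At Tcf7l2 (chr19:55816300-56008144, plus strand) the female region lay from -4.1 to -0.9 kb and the male region from 149.5 to 154.5 kb, where it held internal TSSs at 151.54, 152.72, 153.70 and 153.85 kb. None of these regions touched the gene start itself.

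At Tcf7 (chr11:52065873-52096681, minus strand) the H3K27Me3 region was 11.6 kb wide in the female list, from -9.52 to 2.08 kb, and 1.8 kb in the male list, from 0.08 to 1.88 kb. The male region began 0.08 kb past the gene start and held the next 3 TSSs. At Lef1 (chr3:130813389-130927274, plus strand) the H3K27Ac and H3K27Me3 regions at the start were alike in the lists, H3K27Me3 running from -8.39 to 2.61 kb in the female list and from -7.99 to 4.01 kb in the male one. Inside Lef1 the male list added H3K27Ac regions of 2.6 kb (chr3:130841401-130843999) and 3.8 kb (chr3:130857801-130861599), both within stretches of H3K4Me1 found in both lists, and the female list added an H3K27Me3 region of 2.6 kb (chr3:130901001-130903599) that overlapped H3K27Ac of both lists. The nearest female H3K27Ac regions lay 1.2 kb and 6.8 kb from the male ones.

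**Figure D3:**
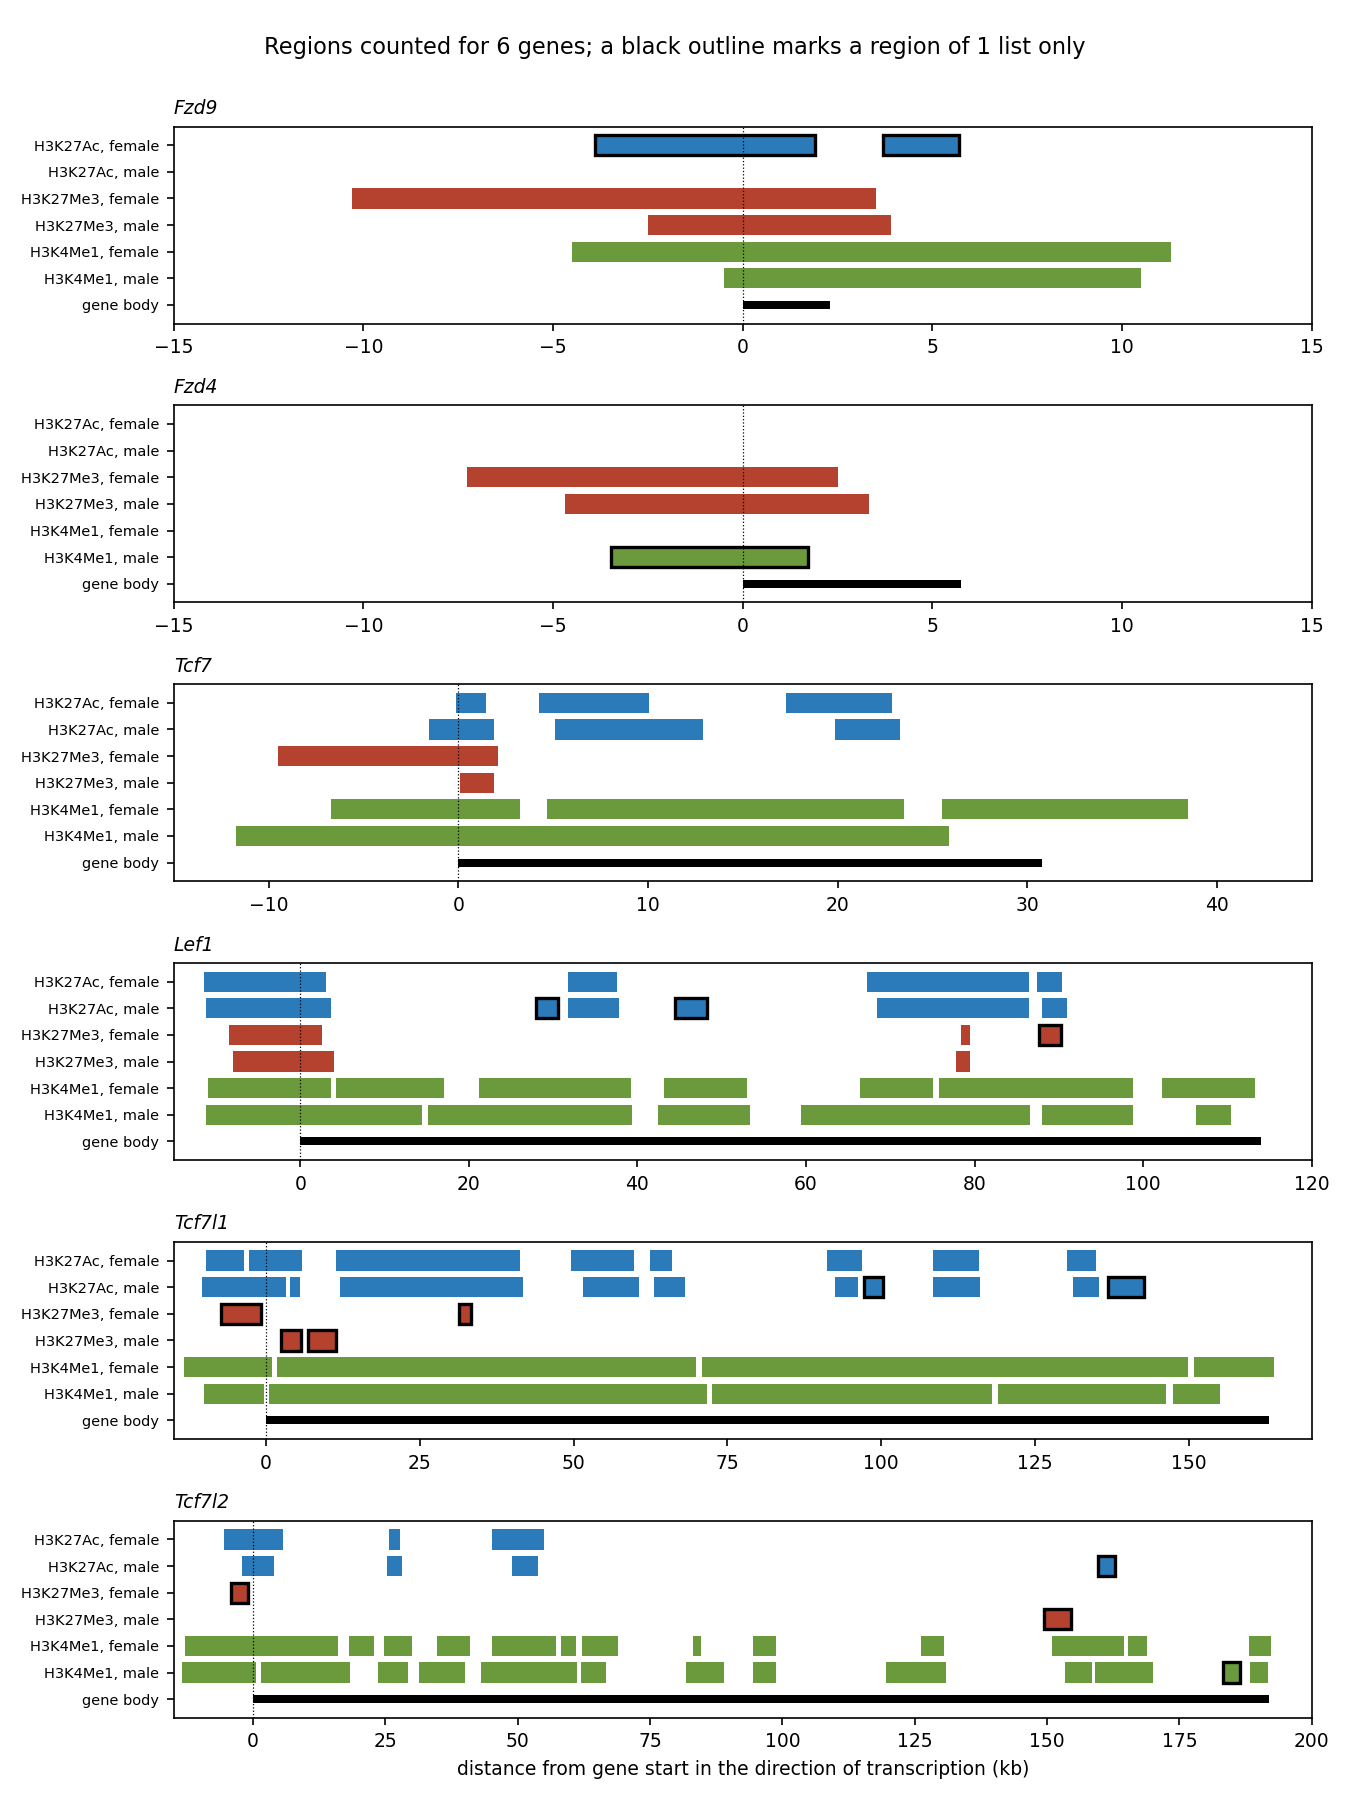
Regions of each list counted for Fzd9, Fzd4, Tcf7, Lef1, Tcf7l1 and Tcf7l2 by distance in kb from the gene start in the direction of transcription, with the gene body as a black bar and a black outline on regions found in 1 list only. The outlined H3K27Me3 regions of Tcf7l1 do not share a base, the larger female one lying upstream and both male ones downstream of the gene start, and those of Tcf7l2 lie at -4.1 to -0.9 kb and at 149.5 to 154.5 kb.

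The co-receptors both carried H3K27Ac over the gene start in both lists, and they differed in H3K27Me3. Lrp5 had H3K27Ac over 64.0% and 68.0% of the 10 kb and H3K4Me1 over 100% in both. Its H3K27Me3 region was 4.8 kb wide and held the gene start in the female list, whereas the male region was 1.2 kb wide and lay from -3.24 to -2.04 kb. Lrp6 had H3K27Ac over 22.0% and 24.0%, H3K4Me1 over 44.2% and 78.2%, and no H3K27Me3, the nearest region lying 46.2 kb from the gene start in the female list against 36.4 kb in the male. A female-only H3K27Ac region of 3.4 kb lay inside Lrp6 (chr6:134465001-134468399), overlapping H3K4Me1 of both lists, and a male-only H3K4Me1 region of 3.4 kb lay just upstream (chr6:134517401-134520799).

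Among the secreted inhibitors, Dkk1 and Sfrp1 carried all 3 marks in both lists and Sfrp2 carried H3K27Me3 and H3K4Me1. H3K27Me3 covered 68.0% and 66.4% of the 10 kb at Dkk1, 78.0% and 92.0% at Sfrp1, and 100% and 83.6% at Sfrp2. H3K27Ac covered 25.5% and 19.5% at Dkk1, where it lay upstream and not over the start, 26.0% and 20% at Sfrp1, and 0 at Sfrp2. H3K4Me1 covered 31.5% and 27.5% at Dkk1, 89.7% and 71.7% at Sfrp1, and 62.0% and 66.0% at Sfrp2. Axin2 (chr11:108781663-108812097, plus strand) had H3K27Ac over 38.0% of the 10 kb in the female list against 32.0% in the male, in a region that held its start in both, and H3K4Me1 over 82.6% and 72.6%. Its H3K27Me3, over 34% and 42.6%, began past the start in both lists, at 1.14 kb and 0.74 kb.

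Counted at the gene start alone, the lists differed more for H3K27Me3 than for the other marks. A female H3K27Me3 region held the gene start of 34 members (23.2% of all genes) and a male one that of 29 (19.4%). At 5 members, Wnt4, Fzd2, Fzd7, Tcf7 and Lrp5, the start lay in a female region only (6.01% of all genes), and at 0 in a male region only (2.15%). At 4 of these 5 a male region ended or began just short of the start, 0.081 kb from it at Tcf7, 0.396 kb at Wnt4, 0.455 kb at Fzd2 and 0.591 kb at Fzd7, so small gaps decide these calls. At Lrp5 the male region was 2.04 kb away. H3K27Ac held the start of 17 members in the female list (45.6% of all genes) and 16 in the male list (46.2%), with Fzd9 in the female list only (2.39%) and no member (0) in the male list only (2.95%). H3K4Me1 held it at 27 (44.7%) and 26 (41.5%), with Fzd10 and Tcf7l1 in the female list only (10.2%) and Fzd4 in the male list only (7.0%).

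The reach of H3K27Me3 around the start differed between the groups. At 5 kb downstream of the start it covered 89.5% of ligands in the female list against 68.4% in the male, and 40% and 50% of Frizzled receptors, against 13.8% and 11.5% of all genes. At 10 kb downstream the ligands were still covered at 68.4% and 63.2%, against 9.64% and 7.54% of all genes. The receptors were covered at 10.0% and 20%, near all genes in the female list and above them in the male, with only 10 receptors counted. Frizzled genes were also shorter than ligand genes, with a median length of 4.59 kb against 22.2 kb.

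**Figure D4:**
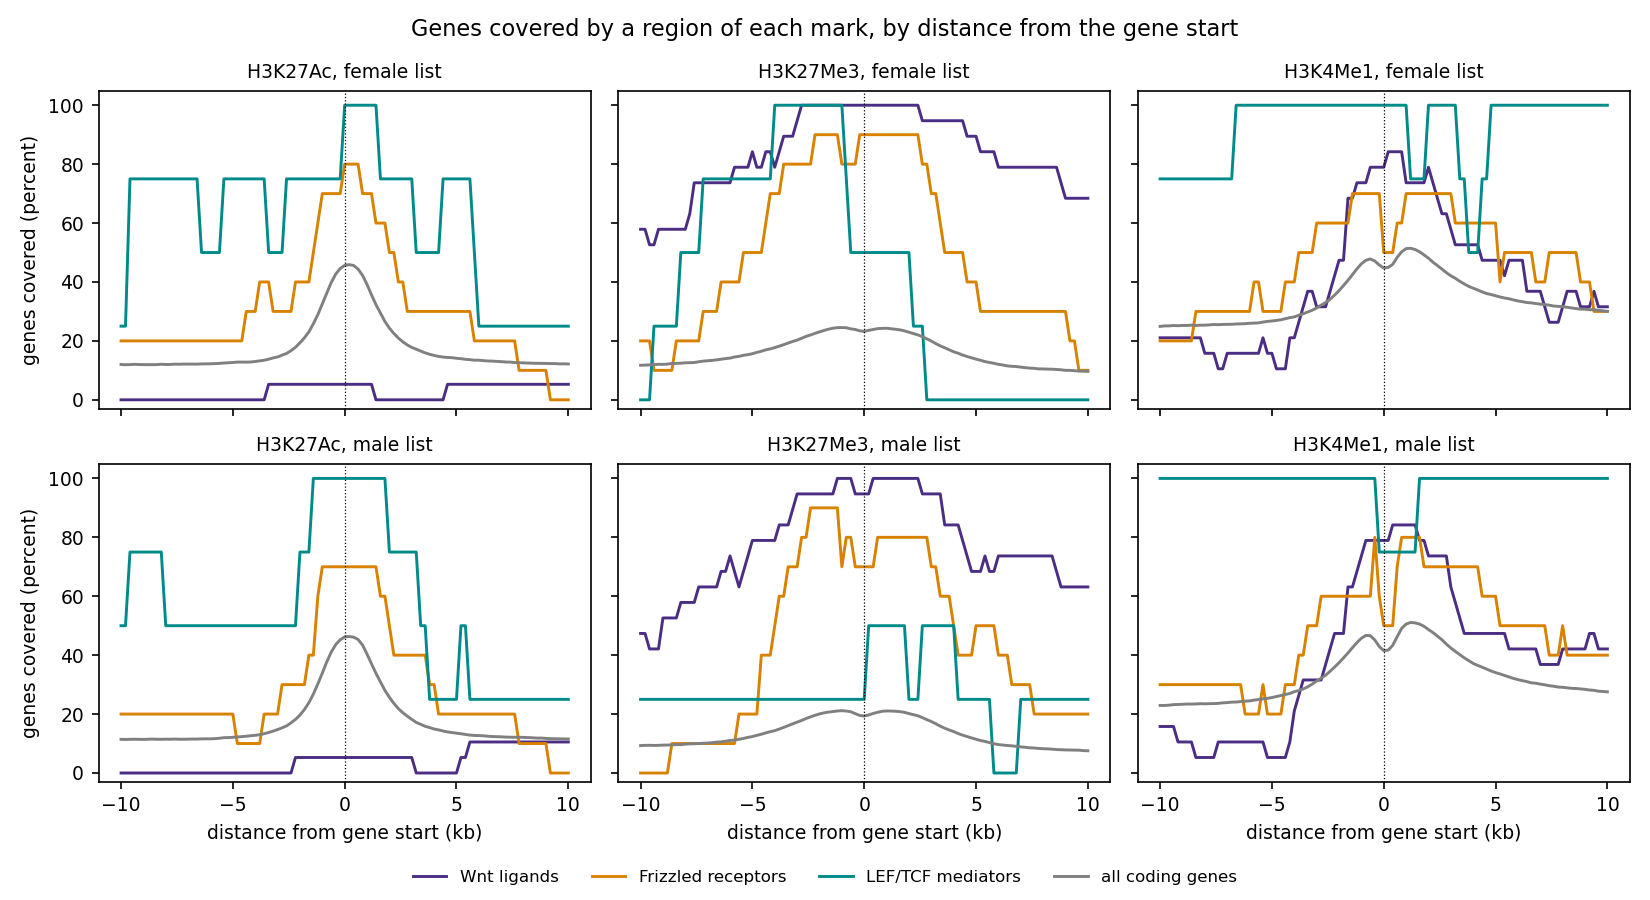
Percent of genes covered by a region at each distance in kb from the gene start, for ligands, Frizzled receptors, LEF/TCF mediators and all protein-coding genes, with a panel for each mark and list. The ligand line for H3K27Me3 stays at 68.4% in the female list against 63.2% in the male at 10 kb downstream, far above the line of all genes, while the ligand line for H3K27Ac stays below it.

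H3K27Ac and H3K27Me3 often covered the same bases. In the female list 16 members had both marks within the 10 kb, and the marks shared bases at 16 of them, against 76.4% of all genes with both marks there, with a median of 3.62 kb and a range of 0.999 to 7.61 kb. In the male list 14 had both and 13 shared bases, against 77.4% of all such genes, Dkk1 being the exception, with a median of 2.6 kb. Sharing bases was thus the usual state of genes with both marks. At Wnt8a, Fzd1, Fzd6, Fzd8 and Sfrp1 all H3K27Ac bases of the window lay inside H3K27Me3 in both lists. At Tcf7l1 37.5% of them did in the female list against 20.8% in the male. Regions called in a population of cells with 2 parental alleles do not show that both marks lie in the same cell or on the same allele.

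**Figure D5:**
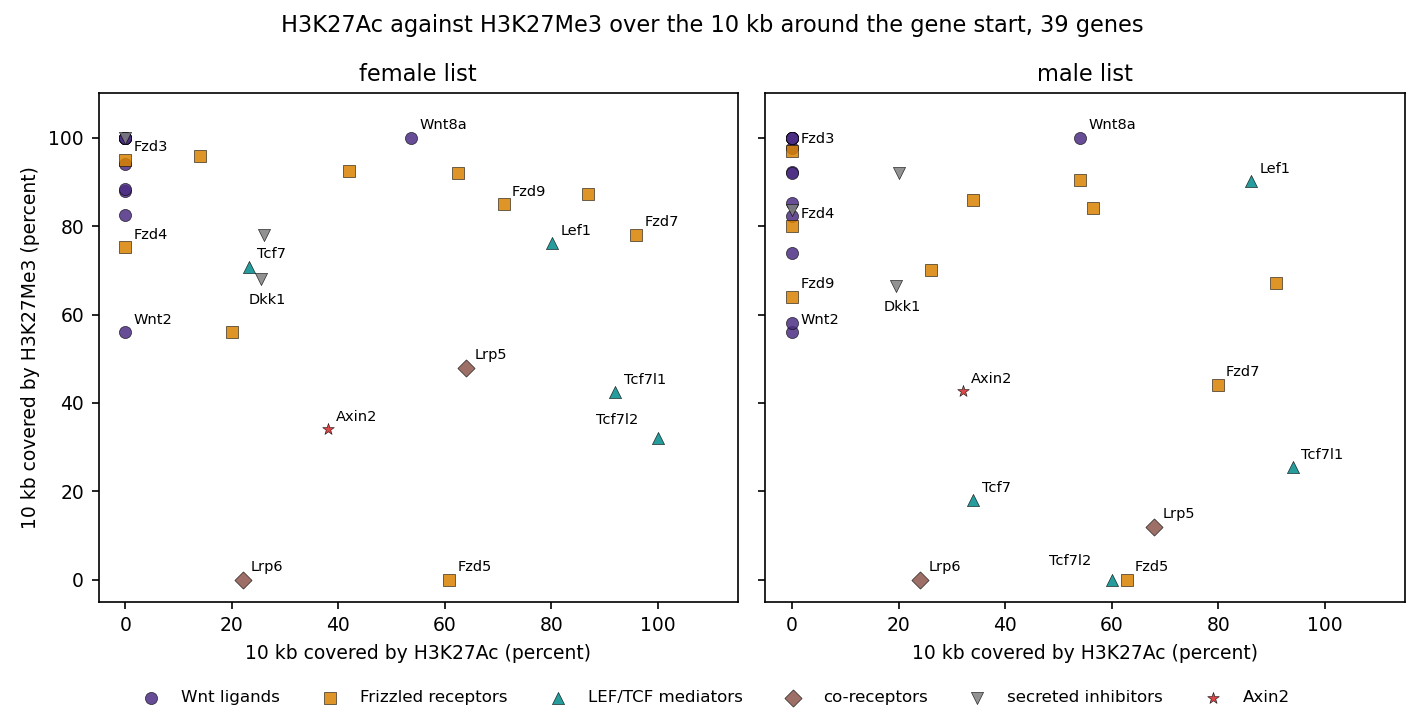
Percent of the 10 kb around the gene start covered by H3K27Ac (horizontal) and by H3K27Me3 (vertical) for the 39 genes, in the female list (left) and the male list (right), with a symbol for each role. Ligands other than Wnt8a stand on the left edge at 0 H3K27Ac, and Fzd9 stands at 71.0% H3K27Ac in the female panel and at 0 in the male panel.

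Regions without a partner in the other list, that is without a shared base, were less frequent at members than over the whole list in 5 of the 6 lists, with male H3K27Ac the exception. For H3K27Me3 they were 13 of the 57 female regions at members (39.8% over the whole list) and 5 of the 54 male ones (23.6%). For H3K4Me1 they were 9 of 88 (21.8%) and 6 of 83 (13.1%). For H3K27Ac they were 4 of 40 (19.1%) in the female list and 5 of 41 (10.4%) in the male list. Such regions were narrow, with medians from 3.0 to 4.6 kb, against 5.5 to 10.4 kb for the partnered regions at members. Regions at members had a higher median width than the whole list for every mark. For H3K27Me3 it was 7.8 kb in both lists, against 4.2 kb over the female list and 4.4 kb over the male. A wider region has more bases in which to meet a partner, so the shares are not of like regions. They touched 17 of the 39 genes and left 22 without any, counts for which no share of all genes is given. The 22 included 8 of the 10 Frizzled receptors. Frizzled genes were short, with a median of 4.59 kb against 22.2 kb for ligands, although the search also took in 5 kb around each TSS. The part of gene length in this count was not tested.

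The 5 male-only H3K27Ac regions all lay inside LEF/TCF genes, with 2 in Lef1, 2 in Tcf7l1 (chr6:72596601-72602399 and chr6:72639001-72641999) and 1 in Tcf7l2 (chr19:55976001-55979199). These genes are long, with a median of 138 kb, and held 23 of the 41 male H3K27Ac regions at members and 18 of the 40 female ones, of which 0 were female-only. The Tcf7l1 region at chr6:72639001-72641999 stood 0.401 kb from a female region, so a gap of that size decides its count. The fibroblast markers with H3K27Ac were likewise more in the male list, at 7 of 14 against 2, with 5 in the male list only (2.55% of all genes). The part of feeder cells in these regions was not tested. The female-only H3K27Ac regions were the 2 at Fzd9 and 1 each in Wnt7b and Lrp6.

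Of the 13 female-only H3K27Me3 regions, 9 were at ligands and 4 at LEF/TCF genes. Wnt5b held 5 of them, from 2.2 to 4.4 kb wide, spread from -7.66 to 109.34 kb along a gene of 112 kb, and its H3K27Me3 bases were shared at 35.1%, the lowest share of any ligand. The others were 2 in Wnt7a, 1 each at Wnt4 and Wnt8b, 2 at Tcf7l1 and 1 each at Lef1 and Tcf7l2. The male-only ones were 2 at Tcf7l1 and 1 each at Tcf7l2, Wnt7a and Wnt9a. Female-only H3K4Me1 regions lay at Wnt4, Wnt7b, Wnt8b, Wnt11, Wnt16, Lrp5 and Sfrp2, with 2 each at Wnt11 and Lrp5. Male-only H3K4Me1 regions lay at Wnt3a, Wnt4, Wnt5b, Fzd4, Tcf7l2 and Lrp6, 1 at each.

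The likeness of the lists at a gene was measured as the percent of bases covered in either list that were covered in both, within the gene body and 5 kb of its TSSs. For H3K27Me3 the median was 80% over the 37 members with the mark in both lists and 66.1% over all 7069 such genes. It was 92.0% for ligands, 80% for Frizzled receptors and 12.7% for the LEF/TCF genes, which ranged from 0 at Tcf7l1 and Tcf7l2 through 25.4% at Tcf7 to 65.2% at Lef1. Wnt1, Wnt2, Wnt6, Wnt8a, Wnt10a and Wnt10b were at 100% and Fzd8 at 97.8%, while Lrp5 was at 25.0% and Axin2 at 44.7%. For H3K27Ac the members' median was 75.8% and that of all genes 71.9%, and for H3K4Me1 76.7% and 73.0%. The LEF/TCF genes stood at 64.6% for H3K27Ac and 77.5% for H3K4Me1.

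The sequences before these gene starts were rich in CpG, the dinucleotide that is dense in CpG island promoters. In the 250 bases before the start the members had a median of 23 CpG and a G+C content of 69.2%, against 8 CpG and 54.0% over all genes. Genes with H3K27Me3 over the start in both lists had a median of 12 CpG, and those with H3K27Ac there 16. Members ranged from 3 CpG at Wnt8a, Wnt10a and Dkk1 to 48 at Wnt9a, and both ends of this range carried H3K27Me3 over the start. Shown here, from the NCBIM37 (mm9) reference in the direction of transcription and with each CpG in capitals, are the sequences before Fzd9 and Fzd4, the receptors whose H3K27Ac or H3K4Me1 call was in 1 list, before the LEF/TCF genes, whose H3K27Me3 differed in position, and before Axin2, whose H3K27Ac held the start while its H3K27Me3 lay past it.
Fzd9 (chr5:135727101-135727350, minus strand): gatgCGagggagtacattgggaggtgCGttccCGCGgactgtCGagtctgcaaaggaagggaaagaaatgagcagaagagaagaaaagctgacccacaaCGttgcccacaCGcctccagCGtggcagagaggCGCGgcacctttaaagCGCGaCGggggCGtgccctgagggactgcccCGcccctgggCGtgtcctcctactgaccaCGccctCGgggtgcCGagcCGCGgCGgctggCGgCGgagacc
Fzd4 (chr7:96552626-96552875, plus strand): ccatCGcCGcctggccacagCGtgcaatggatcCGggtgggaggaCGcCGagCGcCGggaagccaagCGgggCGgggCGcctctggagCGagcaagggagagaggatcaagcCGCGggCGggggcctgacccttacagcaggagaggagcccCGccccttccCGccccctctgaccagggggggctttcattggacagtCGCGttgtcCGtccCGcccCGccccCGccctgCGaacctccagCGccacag
Lef1 (chr3:130813139-130813388, plus strand): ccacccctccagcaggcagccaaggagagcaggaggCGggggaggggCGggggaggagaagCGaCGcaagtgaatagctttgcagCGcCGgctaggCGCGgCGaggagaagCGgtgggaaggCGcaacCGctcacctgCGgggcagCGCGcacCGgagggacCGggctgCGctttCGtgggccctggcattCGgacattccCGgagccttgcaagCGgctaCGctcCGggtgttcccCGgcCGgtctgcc
Tcf7 (chr11:52096682-52096931, minus strand): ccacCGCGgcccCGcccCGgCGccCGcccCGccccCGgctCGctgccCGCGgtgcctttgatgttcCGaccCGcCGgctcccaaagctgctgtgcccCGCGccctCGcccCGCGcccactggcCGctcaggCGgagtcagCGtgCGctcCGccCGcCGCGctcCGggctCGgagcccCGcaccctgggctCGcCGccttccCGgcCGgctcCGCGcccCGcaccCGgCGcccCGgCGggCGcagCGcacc
Tcf7l1 (chr6:72739249-72739498, minus strand): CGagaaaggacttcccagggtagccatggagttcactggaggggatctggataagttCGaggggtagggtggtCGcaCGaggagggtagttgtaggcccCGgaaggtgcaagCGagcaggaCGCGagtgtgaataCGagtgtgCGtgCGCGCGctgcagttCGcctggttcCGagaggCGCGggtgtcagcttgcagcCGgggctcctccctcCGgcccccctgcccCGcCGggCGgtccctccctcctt
Tcf7l2 (chr19:55816050-55816299, plus strand): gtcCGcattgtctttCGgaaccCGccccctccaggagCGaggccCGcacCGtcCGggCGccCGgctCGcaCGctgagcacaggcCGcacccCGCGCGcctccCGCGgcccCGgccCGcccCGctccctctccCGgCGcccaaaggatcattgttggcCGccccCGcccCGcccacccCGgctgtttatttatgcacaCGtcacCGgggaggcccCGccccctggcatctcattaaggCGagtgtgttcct
Axin2 (chr11:108781413-108781662, plus strand): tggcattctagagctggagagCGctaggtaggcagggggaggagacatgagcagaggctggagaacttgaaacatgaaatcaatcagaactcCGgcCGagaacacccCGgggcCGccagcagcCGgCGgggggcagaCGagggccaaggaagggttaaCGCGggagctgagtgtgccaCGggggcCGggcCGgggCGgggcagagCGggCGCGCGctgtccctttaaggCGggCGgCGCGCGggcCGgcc

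Fzd9 has 24 CpG and Fzd4 25 in these windows, Lef1 26, Tcf7 43, Tcf7l1 22, Tcf7l2 30 and Axin2 24, all above the median of all genes. The Fzd9 window lies inside the female-only H3K27Ac region, and the Fzd4 window inside the male-only H3K4Me1 region. The core letters of the LEF/TCF motif, CTTTGAT, were searched on both strands of the 250 bases, where the opposite strand reads ATCAAAG. They were found at 3 of the 39 members, Wnt8a, Wnt11 and Tcf7, a share of 7.69% against 3.05% of all genes. The matches at Wnt11 and Tcf7 are shown with the motif in capitals, the first starting at -51 and the second at -195 from the gene start.
Wnt11 (chr7:105983564-105983584, plus strand): tgggcggATCAAAGcgacggt
Tcf7 (chr11:52096863-52096883, minus strand): gcggtgcCTTTGATgttccga

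The rest of the pathway was described with a list of other Wnt pathway genes, of which 59 were found in the annotation. H3K27Ac lay at 42 of them in the female list against 38 in the male, or 71.2% and 64.4% (58.8% and 58.3% of all genes). H3K27Me3 lay at 43 and 36, or 72.9% and 61.0% (40.5% and 35.4% of all genes). H3K4Me1 lay at 53 and 56, or 89.8% and 94.9% (67.0% and 65.4% of all genes). The 14 cytoplasmic transducers, such as Ctnnb1 (β-catenin), Apc and Gsk3b, carried H3K27Ac at 14 and 13, or 100% and 92.9%. H3K27Me3 lay at 6 and 4 of them, or 42.9% and 28.6%, near the shares of all genes. The 10 further secreted inhibitors resembled the ligands, with H3K27Ac at 2 in both lists and H3K27Me3 at 9 and 8. The R-spondins with their receptors and regulators carried H3K27Ac at 6 and 5 of 9 (66.7% and 55.6%) and H3K27Me3 at 8 in both lists (88.9%).

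Calls of any mark differed between the lists at 17 of these 59 genes, a count for which no share of all genes is given. H3K27Me3 was in the female list only at 8 (8.9% of all genes), namely Dkk4, Porcn, Ryk, Ptk7, Gsk3b, Csnk1a1, Ctnnbip1 and Cby1, and in the male list only (3.8%) at Tle3, a corepressor of LEF/TCF proteins. Porcn encodes the enzyme that acylates Wnt ligands, and Ryk and Ptk7 are receptors outside the Frizzled family. H3K27Ac was in the female list only (3.1%) at 4, Lgr5, Amer1, Ctnnbip1 and T, with 0 in the male list only (2.55%). H3K4Me1 was limited to the female list (4.54%) at Bcl9 and to the male list (2.96%) at Dkk2, Cer1, Rspo3 and Nkd2. Ctnnbip1, an inhibitor of β-catenin, thus carried both H3K27 marks in the female list and neither in the male list. Porcn and Amer1 are on the X chromosome, of which female ES cells have 2 copies and male ES cells 1, and copy number and mark cannot be told apart there.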

How the data were processed

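ChIP-seq regions of 3 marks were analysed in 6 lists. Reads were aligned to mm9 by the authors with Bowtie2, and enrichment was measured with Bedtools. Bowtie and deepTools appear in the processing notes of the submitters. The deposited values are other than counts: the chromosome, start and end of each region, on a grid of 200 bp, per the files themselves. Not given in the sources used here are the region caller, its threshold, the use of IgG and input, and how lines were pooled within a sex. Each list is therefore taken as the authors' pooled list. Read depth is unknown.

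Genes were taken from GENCODE M1 on NCBIM37 (mm9). An overlap of 1 bp or more counted as shared. Overlaps were computed in Python 3.11.15, tested on simulated data and checked with bedtools 2.31.1 (6 of 6 counts equal). In all, 4 regions ran past a chromosome end, by at most 79 bp. Every member is named. Values are given for members with a list-only region or a differing call, the extremes of each group, and all mediators, co-receptors, inhibitors and Axin2. Alternatives were windows of 2 and 50 kb, a region containing a TSS, 50% reciprocal overlap and gaps of 1 kb. Equal list lengths, with the widest regions of the longer list kept, were a further alternative. Members and gene lists were chosen by name, with earlier results of these data known. The IgG and input libraries were not analysed here.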

Additional observations from a re-analysis of the deposited data

How the results depend on the processing

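Taking regions within 50 kb of a TSS raised the ligands with H3K27Ac to 12 in the female list against 11 in the male. It raised the members with H3K27Ac in the female list only to 3 and those with H3K27Me3 in the female list only to 1. It left 0 with H3K4Me1 in the male list only. Shares of all genes are not given for this window, so these counts have no background. Within 2 kb, 1 member had H3K27Ac in the male list only (2.75% of all genes) and 1 had H3K27Me3 in the female list only (7.33%). Where a region had to contain a TSS, H3K27Me3 was at 2 mediators in the female list against 3 in the male (25.9% and 21.7% of all genes). It was at 4 members in the female list only (6.42% of all genes) against 1 in the male only (2.27%). H3K4Me1 was then at 5 Frizzled receptors in each list (51.2% and 48.4% of all genes). Equal numbers of regions were made by keeping the widest ones of the longer list, so the narrowest female regions were dropped. Under this setting 1 member had H3K27Ac and 2 had H3K4Me1 in the male list only, again without shares of all genes. A reciprocal overlap of 50% gave 8 female-only H3K27Ac regions of 40 at members and 9 male-only ones of 41. For H3K27Me3 it gave 25 of 57 and 22 of 54, and for H3K4Me1 37 of 88 and 31 of 83. Shares over the whole lists are not given for this overlap, so these counts have no background either. The cause of these changes was not tested beyond the wider or narrower search itself. No paired analysis was possible because there is 1 list per sex and mark, with no value for a single line, and leaving out a line was not possible for the same reason. Without read depth, a region missing from a list may have been below its threshold.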
